A study of Mus musculus with 23 samples.

Results

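The fibulins and elastic fibre genes are 10 named genes of the 54347 in the estimated count table of this series: Fbln1, Fbln2, Fbln5, Efemp1 and Efemp2 of the fibulin family, Eln, Fbn1 and Fbn2, Emilin1 and Mfap5. They were chosen by name after expression values of these same libraries were known, in particular the opposite direction of Fbln5 in the 2 batches, so their levels and fold changes are given as description. Where a member is said to be called, the word only records on which side of the threshold it fell in a fit of all genes, and it is no test of the member. RNA sequencing with the Smart-seq2 protocol, which amplifies full-length cDNA from small inputs, was carried out on 23 libraries of cells from the labial cervical loop, the epithelial fold with its surrounding tissue at the growing end of the mouse lower incisor. All mice carried GFP driven by the endogenous Sox2 promoter (Sox2-GFP), were at postnatal day 2, and gave tissue that was dissociated with collagenase and neutral protease. Cells were then gated on GFP as Sox2-Positive (dental epithelial stem cells in the labels' words) or Sox2-Negative. Batch A gave 6 libraries of each population, and batch B gave 4 Sox2-Negative and 7 Sox2-Positive libraries. Batches were processed on separate days with different mice, and the labels leave unsaid whether the libraries of a batch are different mice or divided material, so every p-value measures only the spread between libraries, which may be technical. Because GFP reports the Sox2 promoter, the sort takes any Sox2-expressing cell of the dissected region, not epithelium alone.

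Elastic fibres have an inner core of cross-linked elastin, encoded by Eln, laid down on a scaffold of microfibrils built from the fibrillins Fbn1 and Fbn2. Short fibulins (Fbln5, Efemp2 and Efemp1) bring elastin and the lysyl oxidases that cross-link it to the microfibrils, and the longer fibulins Fbln1 and Fbln2 are found in elastic fibres and in basement membranes, the sheets of matrix between epithelium and connective tissue. EMILIN1 sits at the interface of elastin and microfibril, and MFAP5 binds fibrillin.

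Total estimated counts ran from 2305778 to 9541443 per library. A level of 3 counts, taken here as the floor of detection, lay at 0.477 to 0.802 CPM (counts per 1000000 of the TMM-scaled library total) in batch A and at 0.355 to 1.29 CPM in batch B, which covers counting error only. Sox2 was at 7.25 ± 4.40 CPM in batch A Sox2-Positive libraries (SD, n = 6) and 16.3 ± 2.90 (n = 7) in batch B, while the Sox2-Negative libraries held 0.0434 ± 0.106 (n = 6) and 0.296 ± 0.592 CPM (n = 4). Summed levels of 6 epithelial markers were 3741 ± 140 CPM in batch A Sox2-Positive libraries and 4999 ± 826 in batch B, against 202 ± 36.9 and 364 ± 21.1 CPM in the Sox2-Negative libraries. The 6 mesenchymal markers summed to 1404 ± 202 and 630 ± 35.5 CPM in the Sox2-Positive libraries of batches A and B and to 11223 ± 576 and 11241 ± 1433 CPM in the Sox2-Negative ones. Libraries numbered 1 and 2 of batch B stood apart in both populations, though by different markers. The epithelial markers summed to 3901 and 3707 CPM in these Sox2-Positive libraries against 5354 to 5692 CPM in the other 5. In the Sox2-Negative libraries 1 and 2 the mesenchymal markers summed to 10200 and 9840 CPM, against 12206 and 12719 CPM in libraries 3 and 4. Their epithelial sums, 365 and 367 CPM, lay between those of libraries 3 and 4 (337 and 389 CPM). Results that rest on the batch B libraries numbered 1 and 2 are given with and without them.

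The bases upstream of 3 genes are shown as examples. They are Fbln5, which changed direction between batches, Fbln1, whose population difference was seen in batch A, and Efemp2, whose levels differed least. The members that were lower in Sox2-Positive libraries of both batches, and Fbln2, which was higher in both, are not shown. Each sequence shown is the 250 bases before an annotated RefSeq start on GRCm38.p6, from a table that held 7 of the 10 members. None of the 3 windows overlaps an annotated exon. They lie at chr12:101819120-101819369 on the minus strand (Fbln5), chr15:85205699-85205948 on the plus strand (Fbln1) and chr19:5473696-5473945 on the plus strand (Efemp2), and run 5′ to 3′ on the gene's strand. Each gene has further annotated starts in the table, whose windows overlap exons of the gene and are not shown. Capitals mark matches, on either strand, to the SOX core ACAAT or the GC box GGGCGG.
Fbln5: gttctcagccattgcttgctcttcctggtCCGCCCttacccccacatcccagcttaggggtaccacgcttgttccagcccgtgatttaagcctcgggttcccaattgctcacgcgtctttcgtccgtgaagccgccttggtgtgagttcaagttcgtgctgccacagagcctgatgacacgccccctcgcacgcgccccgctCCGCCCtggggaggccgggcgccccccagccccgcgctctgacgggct
Fbln1: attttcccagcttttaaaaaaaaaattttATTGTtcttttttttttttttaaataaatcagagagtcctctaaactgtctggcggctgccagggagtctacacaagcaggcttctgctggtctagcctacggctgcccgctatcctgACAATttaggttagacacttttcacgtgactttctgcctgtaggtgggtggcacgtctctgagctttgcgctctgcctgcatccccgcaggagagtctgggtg
Efemp2: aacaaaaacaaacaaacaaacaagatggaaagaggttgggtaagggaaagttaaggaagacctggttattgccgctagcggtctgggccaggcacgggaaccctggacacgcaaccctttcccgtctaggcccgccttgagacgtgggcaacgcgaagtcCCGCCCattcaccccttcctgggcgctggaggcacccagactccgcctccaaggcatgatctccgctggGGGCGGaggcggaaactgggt
The window shown for Fbln5 held 2 GC boxes and no SOX core, the Fbln1 window 2 SOX cores and no GC box, and the Efemp2 window 2 GC boxes and no SOX core. Among 32817 upstream windows of the same length, 27.7% held ACAAT and 32.7% GGGCGG, so each match is common, and the matches depend on the start taken: the window of the other Fbln5 start held 0 GC boxes, and that of the other Fbln1 start 1 SOX core and 1 GC box. The TATA box TATAAA (in 12.4% of windows), the AP-1 motif TGANTCA (6.75%) and the TEAD motif GGAATG (12.6%) were searched on both strands in the same way and had 0 matches in these windows. GC content was 65.2% in the Fbln5 window, 46.4% in the Fbln1 window and 59.2% in the Efemp2 window, against a median of 52.4% over all windows.

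The first comparison asks how the sorted populations differed in each batch. In both batches the Sox2-Positive libraries held far less Fbn2 and Emilin1, and less Eln and Fbn1, than the Sox2-Negative libraries, while Fbln2 was higher in them. Fbln1 was 2.64-fold higher in batch A Sox2-Positive libraries and at about the same level in both populations of batch B. Fbln5 was 3.74-fold higher in Sox2-Positive libraries of batch A and 3.58-fold lower in those of batch B. In bulk libraries of sorted cells, fewer cells of a type and less RNA per cell cannot be told apart.

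By edgeR's quasi-likelihood test with Benjamini-Hochberg adjustment, called at an adjusted p under 0.05, 9 of the 10 members passed the filter on low counts in each batch, Mfap5 being the member left out. In batch A 3 of these were called higher in Sox2-Positive libraries (19.3% of all genes tested) and 4 lower (24.2%), with 43.4% of 14296 genes called in either direction. For batch B 1 was called higher (27.1%) and 7 lower (27.6%), with 54.7% of 15765 genes called. Since these contrasts chose the members, nothing is read from the counts. The ranges of the populations did not overlap for 7 members in batch A (28.1% of genes tested) and for 8 in batch B (38.1%, with 7 of them lower against 20.6% of genes; 7 members in all when CPM was taken on total counts or on RLE-scaled totals).

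**Figure D1:**
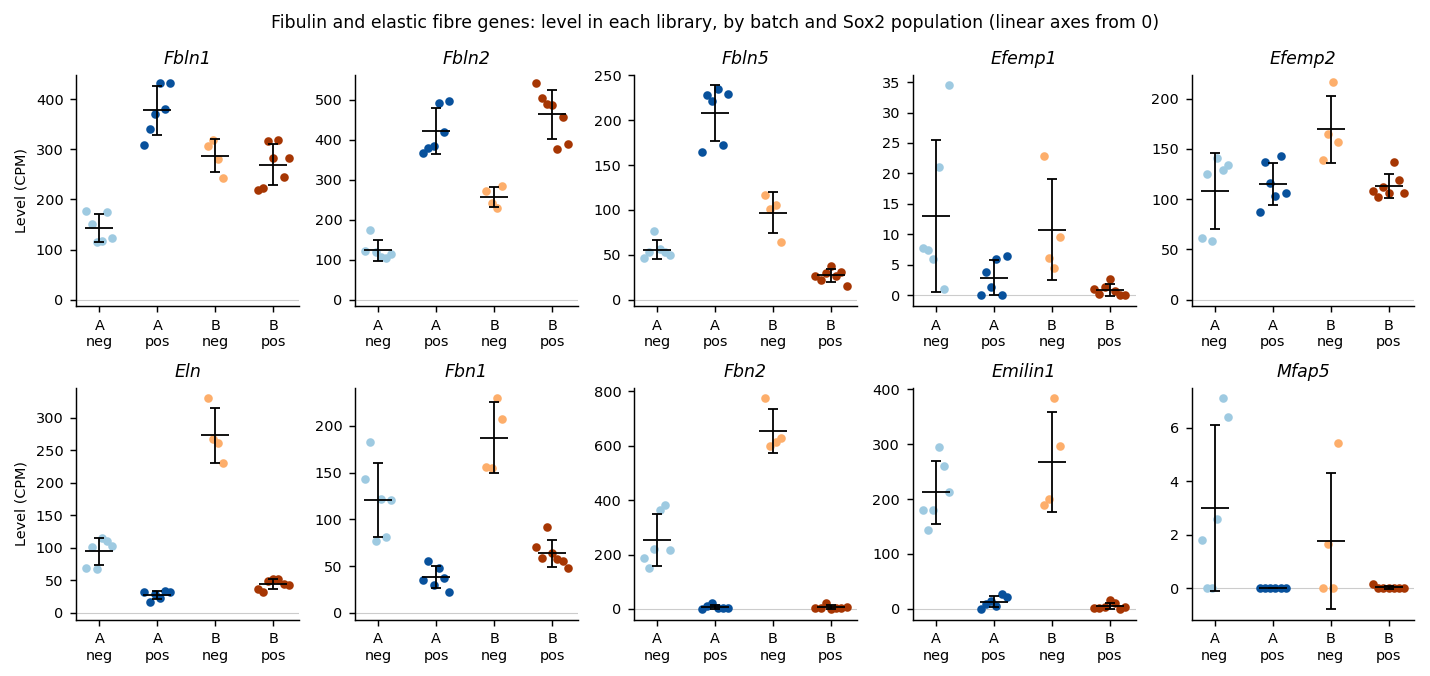
Level in CPM (vertical, linear axes that start just under 0) of each member in every library, for batches A and B and Sox2-negative (neg) and Sox2-positive (pos) cells; points are libraries, and the bars show the group mean ± SD (n = 6, 6, 4 and 7). Fbln5 is highest in batch A Sox2-positive libraries (164.8 to 235 CPM) and lowest in batch B Sox2-positive libraries (15.1 to 38.0 CPM).

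Fbln5 (ENSMUSG00000021186.9, chr12:101746565-101819055, minus strand, GRCm38), the short fibulin that tethers elastin to microfibrils and to integrins, gave the clearest contrast between batches. It ranged from 46.8 to 76.1 CPM with a median of 52.8 in batch A Sox2-Negative libraries, and from 164.8 to 235 CPM with a median of 225 in batch A Sox2-Positive libraries. The 2 populations of batch A did not overlap. The 4 Sox2-Negative libraries of batch B were at 116, 101, 106 and 64.0 CPM, and its 7 Sox2-Positive libraries from 15.1 to 38.0 CPM with a median of 26.8. Here too the populations did not overlap, but the Sox2-Positive libraries were the low ones. The log2 fold change of Sox2-Positive over Sox2-Negative was 1.91 (SE 0.15) in batch A and −1.76 (SE 0.22) in batch B, or −1.55 (SE 0.30) without the batch B libraries numbered 1 and 2. The interaction, batch B's log2 fold change minus batch A's, was −3.74 on the log2 scale (SE 0.27), and −3.49 (SE 0.32) without those libraries.

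Counts behind the Fbln5 values were ample: the lowest library of the lowest group held 35 counts and the highest of the highest group 1444. Its mean level fell from 209 ± 31.2 CPM (SD, n = 6) in batch A Sox2-Positive to 27.0 ± 7.27 (n = 7) in batch B Sox2-Positive libraries, a 7.72-fold difference, and stood at 55.7 ± 10.5 (n = 6) and 96.7 ± 22.8 CPM (n = 4) in the Sox2-Negative libraries of batches A and B. The order of groups was therefore batch A Sox2-Positive, batch B Sox2-Negative, batch A Sox2-Negative and batch B Sox2-Positive, and of neighbours in that order only batch B and batch A Sox2-Negative overlapped in range.

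Markers of some other cell types also differed between the Sox2-Positive groups. Of all genes tested there, 5.54% were called lower in batch B and 4.85% higher. The summed level of 5 glial and neural crest markers (Sox10, Mal, Cdh19, Foxd3 and Erbb3) was 378 CPM in batch A Sox2-Positive libraries, with a range of 323 to 429, and those of batch B had a sum of 31.8 CPM, with a range of 17.4 to 40.1. All 5 were called lower in batch B than in batch A Sox2-Positive libraries by edgeR's adjusted p. In the Sox2-Negative libraries the same sum was 1.47 CPM in batch A and 3.13 in batch B, with ranges of 0 to 3.86 and 1.19 to 4.63, and Mal and Foxd3 were at 0 there in every library of both batches. Of the 6 mesenchymal markers, 3 were called lower and 0 higher in batch B than in batch A Sox2-Positive libraries. Col1a1 (423 against 36.0 CPM) and Col3a1 (386 against 7.00 CPM) were among those called lower, batch A being given first. In the same order Col1a2 was at 563 and 544 CPM, Pdgfra at 29.3 and 42.2 CPM and Prrx1 at 2.10 and 0.375 CPM. Twist1 was at 0 in every Sox2-Positive library of both batches. Of 4 ameloblast markers, 3 were tested and all 3 called lower in batch B, their sum being 319 CPM (286 to 341) in batch A and 8.39 CPM (6.53 to 10.1) in batch B, with Klk4 at 0 in every batch A and Enam in every batch B Sox2-Positive library. The 5 odontoblast and bone markers summed to 27.0 CPM (18.4 to 34.0) and 4.93 CPM (2.90 to 6.44), 2 of them called lower. The sum of the 7 smooth muscle and pericyte markers went the other way, from 150.2 CPM (121 to 185) to 497 CPM (478 to 511). Of these markers, 3 of 6 tested were called higher. The rise lay mostly in Acta2 (30.8 to 204 CPM) and Tagln (62.9 to 207 CPM). Cspg4 went from 40.4 to 70.9 CPM and Rgs5 from 0.916 to 1.415 CPM. Pdgfrb (11.4 to 10.2 CPM), Cnn1 (3.50 to 2.97 CPM) and Myh11 (0.313 to 0.229 CPM) did not rise. Between the same groups 0 of 5 endothelial and 0 of 3 tested melanocyte markers were called. Of 5 leukocyte markers 1 was called lower, and of 6 epithelial markers 1 was called higher. The parts of these cell types in the Fbln5 difference were not tested.

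**Figure D2:**
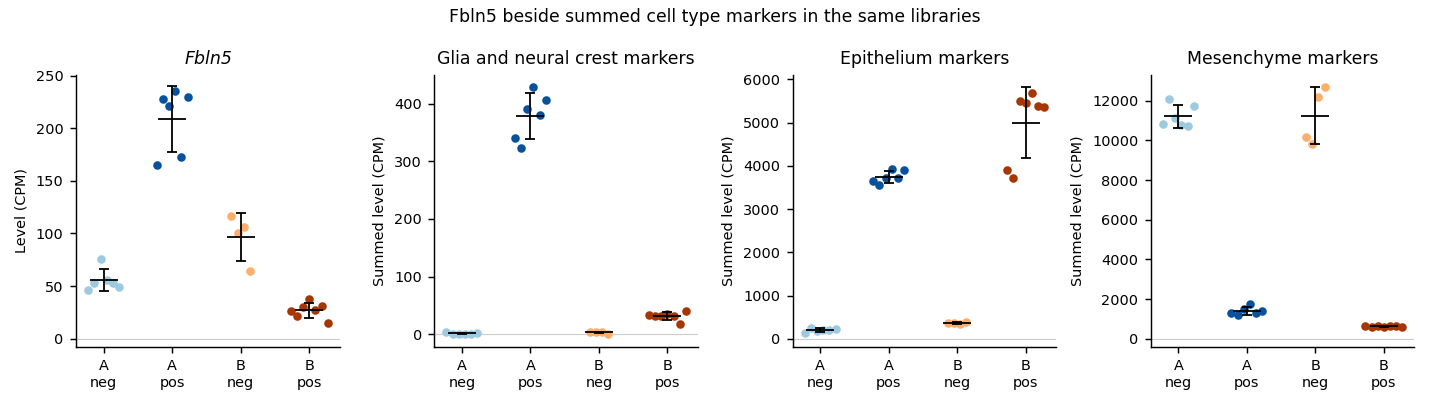
Fbln5 level and the summed levels of glial and neural crest, epithelial and mesenchymal markers (vertical, CPM, linear axes) in the same libraries, by batch and population; points are libraries and bars the mean ± SD. Both Fbln5 and the glial sum are highest in batch A Sox2-positive libraries, but in Sox2-negative libraries the glial sum is near 0 (0 to 4.63 CPM) while Fbln5 is not.

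The genes whose 4 group means were most like those of Fbln5 were Pmp22, Igfbpl1, Vwde, Tgfbr3 and Adam23. Likeness was the root mean square difference of the group means of log2 CPM, each gene centred on its own mean, over 4 groups of 23 libraries and 11081 genes with a mean of at least 10 CPM. It was 0.195 for Pmp22, a myelin protein gene, and 0.24 to 0.315 for the other 4. Pmp22 was at 69.7, 254, 154 and 29.8 CPM in batch A Sox2-Negative, batch A Sox2-Positive, batch B Sox2-Negative and batch B Sox2-Positive libraries. Tgfbr3, the TGF-beta co-receptor betaglycan, was at 13.2, 53.1, 26.6 and 5.62 CPM in the same order. Genes of a library share its depth and batch, so likeness is a description of these group means only.

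Fbln1 (ENSMUSG00000006369.14, chr15:85205949-85286535, plus strand), a fibulin of basement membranes and elastic fibres, ranged from 116 to 177 CPM with a median of 137 in batch A Sox2-Negative libraries and from 309 to 434 CPM with a median of 376 in batch A Sox2-Positive libraries. The batch A populations did not overlap, and the log2 fold change was 1.41 (SE 0.14). Batch B Sox2-Negative libraries were at 307, 320, 280 and 244 CPM and the Sox2-Positive libraries ranged from 220 to 318 CPM with a median of 282. These populations overlapped: the log2 fold change was −0.02 (SE 0.13), with a 95% interval of −0.28 to 0.23. Its sign was not fixed, being 0.17 (SE 0.12) without the batch B libraries numbered 1 and 2 and 0.06 with total-count scaling. The interaction was −1.5 (SE 0.19) and −1.27 (SE 0.21) without those libraries.

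Fbln2 (ENSMUSG00000064080.12, chr6:91212455-91272540, plus strand), the other long fibulin and a basement membrane component, was the member called higher in Sox2-Positive libraries of both batches. It ranged from 105 to 175 CPM with a median of 117 in batch A Sox2-Negative and from 367 to 496 CPM with a median of 401 in batch A Sox2-Positive libraries, a log2 fold change of 1.77 (SE 0.14). Sox2-Negative libraries of batch B were at 270, 241, 230.1 and 283 CPM and the Sox2-Positive libraries ranged from 376 to 540 CPM with a median of 486, a log2 fold change of 0.92 (SE 0.12). The populations did not overlap in either batch. The Sox2-Positive levels of the batches overlapped, at 422 ± 57.7 CPM in batch A and 463 ± 60.5 in batch B, and it was the Sox2-Negative level that was 2.07-fold higher in batch B (256 ± 24.7 against 124 ± 26.1 CPM). The interaction was −0.91 (SE 0.18).

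Efemp2 (ENSMUSG00000024909.15, chr19:5473954-5482517, plus strand), or fibulin-4, which binds lysyl oxidase and is needed for elastic fibre assembly, differed little between groups. It ranged from 58.3 to 141 CPM with a median of 127 in batch A Sox2-Negative libraries, from 87.2 to 143 CPM with a median of 111 in batch A Sox2-Positive, and from 102 to 137 CPM with a median of 108 in batch B Sox2-Positive libraries. The 4 batch B Sox2-Negative libraries were at 139, 165, 216 and 157 CPM, above every batch B Sox2-Positive library but overlapping both batch A groups. The log2 fold change was 0.10 (SE 0.23) in batch A, with a 95% interval of −0.35 to 0.55, and −0.52 (SE 0.14) in batch B. In batch A its sign turned when Sox2-Negative library 1 or 3 was left out, to −0.02 and −0.03. Mus81 lies antisense to it with overlapping exons and was at 22.6 to 30.2 CPM in the 4 groups, and since no strand setting is given, reads of the 2 genes cannot be told apart where they overlap.

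Efemp1 (ENSMUSG00000020467.15, chr11:28853204-28926743, plus strand), or fibulin-3, was low and variable. In batch A Sox2-Negative libraries it ranged from 1.05 to 34.5 CPM with a median of 7.58, and in batch B Sox2-Negative libraries it was at 22.8, 6.13, 4.55 and 9.65 CPM. In Sox2-Positive libraries it ranged from 0 to 6.52 CPM with a median of 2.53 in batch A and from 0 to 2.66 with a median of 0.716 in batch B, and 2 libraries of each were at 0. The log2 fold change was −2.14 (SE 0.99) in batch A, where the populations overlapped, and −3.51 (SE 0.74) in batch B, where they did not, or −2.78 (SE 1.07) and no longer called without the batch B libraries numbered 1 and 2. Single libraries moved both values, to −1.55 without batch A Sox2-Negative library 6 and to −2.85 without batch B Sox2-Negative library 1.

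Eln (ENSMUSG00000029675.12, chr5:134702593-134747323, minus strand), elastin itself, was lower in Sox2-Positive libraries of both batches. It ranged from 67.2 to 116 CPM with a median of 103 in batch A Sox2-Negative and from 17.4 to 33.5 CPM with a median of 30.4 in batch A Sox2-Positive libraries. The batch B Sox2-Negative libraries were at 331, 268, 262 and 231 CPM, all above every batch A library, and the Sox2-Positive libraries ranged from 31.9 to 52.5 CPM with a median of 44.0. The log2 fold change was −1.76 (SE 0.22) in batch A and −2.57 (SE 0.15) in batch B, and neither pair of populations overlapped. The interaction of −0.88 (SE 0.26) was called, but was −0.62 (SE 0.31) and not called without the batch B libraries numbered 1 and 2, and was also lost in 12 of the 23 fits that left out 1 library, at −0.90 to −0.77.

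Fbn1 (ENSMUSG00000027204.13, chr2:125300594-125507993, minus strand), the main fibrillin of adult microfibrils, ranged from 76.6 to 182 CPM with a median of 121 in batch A Sox2-Negative libraries and from 22.6 to 55.3 CPM with a median of 36.5 in batch A Sox2-Positive libraries. The Sox2-Negative libraries of batch B were at 156, 155, 230.3 and 208 CPM, and its Sox2-Positive libraries ranged from 48.3 to 91.5 CPM with a median of 58.8. The Sox2-Positive libraries lay below the Sox2-Negative ones without overlap in each batch, with log2 fold changes of −1.66 (SE 0.26) and −1.48 (SE 0.17). The interaction was 0.11 (SE 0.32), and −0.13 (SE 0.40) without the batch B libraries numbered 1 and 2. Of the 31-base stretches of its transcripts, 19.9% also occur in other annotated transcripts, among them the antisense gene Gm9913, which reached at most 1.19 CPM.

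Fbn2 (ENSMUSG00000024598.9), the fibrillin most expressed in developing tissue, had the lowest Sox2-Positive level relative to its Sox2-Negative level of the 9 members tested in both batches. It ranged from 150.4 to 382 CPM with a median of 219 in batch A Sox2-Negative libraries and from 0.442 to 21.2 CPM with a median of 4.66 in batch A Sox2-Positive libraries. In batch B the Sox2-Negative libraries were at 774, 600, 613 and 628 CPM, and the Sox2-Positive libraries ranged from 0.967 to 20.7 CPM with a median of 3.36. The fold between means was 31.7 in batch A and 106 in batch B, and the log2 fold changes were −4.96 (SE 0.54) and −6.62 (SE 0.49). Batch B Sox2-Positive library 3, at 20.7 CPM with the next at 8.62, weighed on this: without it the batch B value was −7.56, and the interaction went from −1.74 (SE 0.74), not called, to −2.65 (SE 0.66), called.

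Emilin1 (ENSMUSG00000029163.9, chr5:30913402-30921277, plus strand), the elastin-microfibril interface protein, followed the same pattern. It ranged from 143 to 295 CPM with a median of 197 in batch A Sox2-Negative libraries and from 0.221 to 26.5 CPM with a median of 11.5 in batch A Sox2-Positive libraries. In batch B the Sox2-Negative libraries were at 190, 200.4, 383 and 297 CPM, and the Sox2-Positive libraries ranged from 0.362 to 15.2 CPM with a median of 2.60. The log2 fold changes were −4.03 (SE 0.53) and −5.76 (SE 0.55), the latter −6.43 without batch B Sox2-Positive library 4, and the populations did not overlap in either batch.

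Mfap5 (ENSMUSG00000030116.14, chr6:122505845-122529290, plus strand), the fibrillin-binding glycoprotein MAGP2, was near the limit of detection and was not tested within a batch. In batch A Sox2-Negative libraries it ranged from 0 to 7.11 CPM with a median of 2.20 and 2 libraries at 0, and in batch B Sox2-Negative libraries it was at 0, 1.64, 0 and 5.42 CPM. It was at 0 in all 6 batch A Sox2-Positive libraries, which allows up to 0.477 to 0.710 CPM per library, and had 1 count in 1 of the 7 batch B Sox2-Positive libraries.

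**Figure D3:**
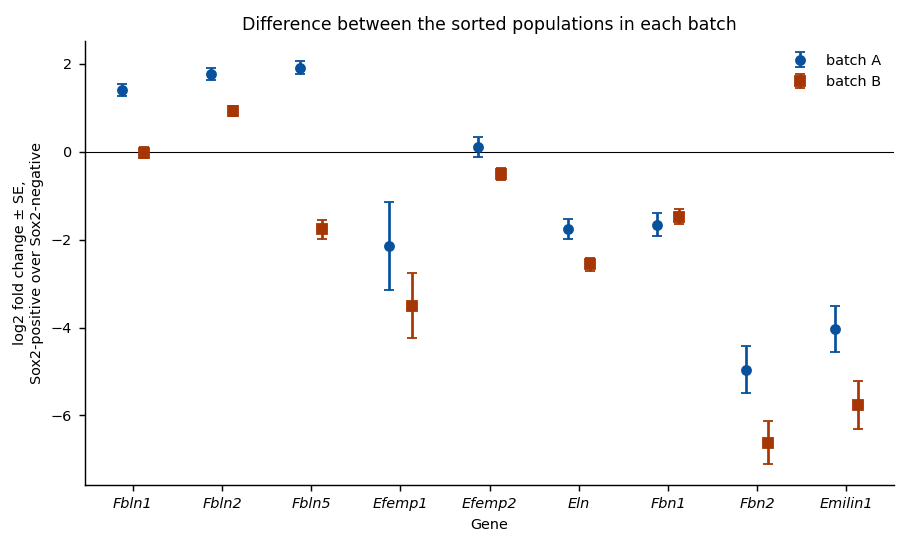
Log2 fold change of Sox2-positive over Sox2-negative libraries (vertical, edgeR) for the 9 members tested in both batches; circles are batch A (n = 6 and 6), squares batch B (n = 7 and 4), and bars ± SE. Fbln5 lies at 1.91 in batch A and −1.76 in batch B, Fbln1 at 1.41 and −0.02, and Eln, Fbn1, Fbn2, Emilin1 and Efemp1 are below 0 in both.

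Between genes, levels were compared as CPM per kilobase of the longest annotated protein-coding transcript. In batch A Sox2-Positive libraries the 4 highest were Fbln1 (103 ± 13.5 CPM per kb), Fbln2 (88.2 ± 12.1), Efemp2 (43.8 ± 7.99) and Fbln5 (35.8 ± 5.36), followed by Eln at 7.24 ± 1.64. Fbln1 and Fbln2 overlapped, as did Efemp2 and Fbln5, and Fbln5 did not overlap Eln. In batch B Sox2-Positive libraries Fbln2 (96.7 ± 12.6), Fbln1 (73.7 ± 11.3) and Efemp2 (42.9 ± 4.50) kept the first 3 places, but Fbln5 was the sixth, at 4.63 ± 1.25, below Eln at 11.4 ± 2.00 and overlapping Fbn1 at 5.32 ± 1.17. The Sox2-Negative libraries were more even. In batch A the first 3 were Emilin1 (55.1 ± 14.7), Efemp2 (41.0 ± 14.4) and Fbln1 (39.1 ± 7.73), whose neighbours in order overlapped throughout. In batch B they were Fbln1 (78.6 ± 9.19), Eln (70.9 ± 10.8) and Emilin1 (69.5 ± 23.6), and the first 6 overlapped from neighbour to neighbour. The place of Eln in batch B Sox2-Negative libraries depended on the length used: it was 2 by the longest coding transcript and 6 by all annotated exons, an alternative chosen after seeing the data.

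**Figure D4:**
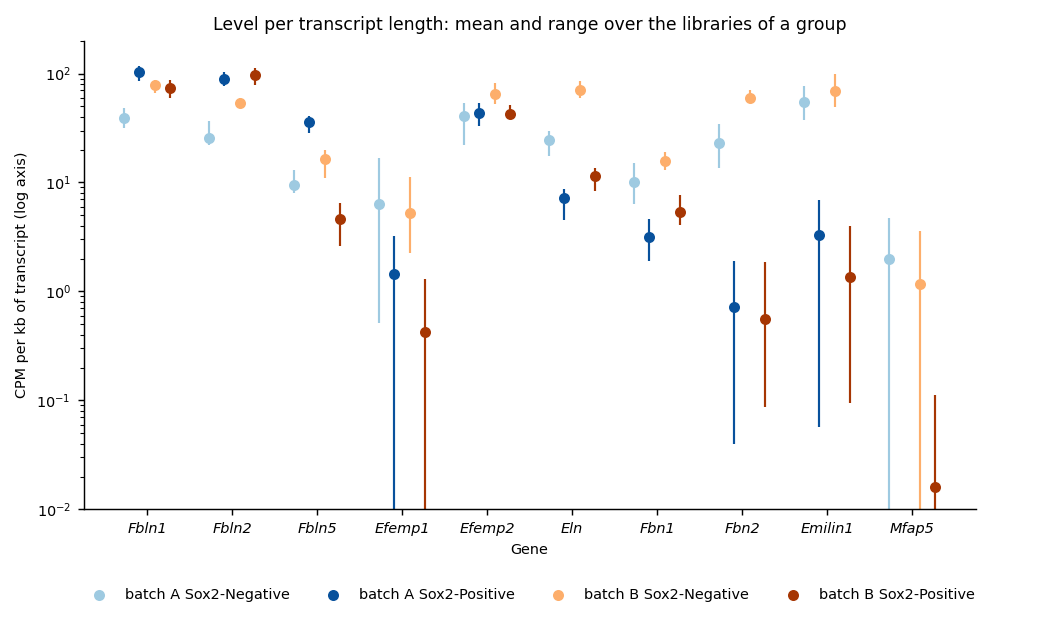
CPM per kilobase of the longest protein-coding transcript (vertical, log axis) for the 10 members in the 4 groups; points are group means and lines run from the lowest to the highest library (lines that reach the foot of the axis include libraries at 0, and Mfap5 in batch A Sox2-positive libraries is at 0 and not drawn). In Sox2-positive libraries Fbln1, Fbln2 and Efemp2 stay at 42.9 or more in both batches, while Fbln5 drops from 35.8 to 4.63.

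The second comparison sets the batches against each other within each population, where day, mice and handling cannot be told apart. In Sox2-Negative libraries Fbln1, Fbln2 and Eln were 2.01-, 2.07- and 2.89-fold higher in batch B, with no overlap, and Fbn2 was 2.58-fold higher with no overlap but not called. In Sox2-Positive libraries Fbln5 was 7.72-fold lower in batch B, and no other member's batches failed to overlap. In all, 5 of 10 members were called between the Sox2-Negative groups, each higher in batch B, where 11.2% of 17190 genes were called, 5.85% higher and 5.35% lower. Between the Sox2-Positive groups 4 were called, 2 higher and 2 lower, where 10.4% of genes were called, 4.85% higher and 5.54% lower. For the interaction 4 members were called, Fbln1, Fbln2, Fbln5 and Eln, each with the lower value in batch B, where 7.04% of genes were called, 2.82% higher and 4.22% lower. The members were chosen with these contrasts known, so nothing is read from these counts either. Ranges failed to overlap for 4 members between the Sox2-Negative groups, each higher in batch B (8.87% of genes, 4.57% higher and 4.3% lower), and for 1 between the Sox2-Positive groups, lower in batch B (8.55% of genes, 3.9% higher and 4.64% lower).

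In the Sox2-Negative libraries, log2 changes from batch A to batch B were 1.53 (SE 0.19) for Eln, 1.05 (SE 0.14) for Fbln2, 1.01 (SE 0.14) for Fbln1, 0.80 (SE 0.20) for Fbln5 and 0.65 (SE 0.21) for Efemp2. Without the batch B libraries numbered 1 and 2 the number of members called fell from 5 to 3, Fbln5 (0.61, SE 0.26) and Efemp2 (0.79, SE 0.27) being lost. In the Sox2-Positive libraries the changes were −2.94 (SE 0.18) for Fbln5, −0.49 (SE 0.13) for Fbln1, 0.74 (SE 0.21) for Fbn1 and 0.65 (SE 0.17) for Eln. Without the same libraries the number called fell from 4 to 2, with Fbln1 (−0.40, SE 0.13) and Fbn1 (0.74, SE 0.24) lost and Fbln5 at −2.88 (SE 0.22). In the Sox2-Negative libraries the 5 endothelial markers summed to 645 ± 90.2 CPM in batch A and 168 ± 39.0 in batch B, with ranges of 572 to 824 and 124 to 209, and all 5 were called lower. The 5 leukocyte markers summed to 1002 ± 75.6 and 203 ± 25.8 CPM, with ranges of 916 to 1093 and 182 to 240.3, and 3 of the 5 were called lower. None of these markers was at 0 in every Sox2-Negative library, and their part in the differences of the members was not tested. Under total-count scaling the median of all genes in this contrast shifted by −0.15 on the log2 scale, and the share of called genes that were higher went from 52.2% to 32.3%, and between the Sox2-Positive groups from 46.7% to 35.4%.

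A list of 33 other genes of elastic fibres, in 7 groups by role, was fitted in the same way. In batch A 25 were tested and 16 called (43.4% of all genes were), 3 higher in Sox2-Positive libraries (19.3%) and 13 lower (24.2%), with a median log2 fold change of −0.86 against −0.04 over all genes. In batch B 29 were tested and 20 called (54.7% of all genes), 3 higher (27.1%) and 17 lower (27.6%), with a median of −1.33 against 0.01. The interaction was called for 6 of 31 tested (7.04% of all genes), 2 higher and 4 lower. Between batches 8 of 31 were called in Sox2-Negative libraries, 7 higher and 1 lower in batch B (11.2% of all genes), and 5 of 31 in Sox2-Positive libraries, 3 higher and 2 lower (10.4%). Without the batch B libraries numbered 1 and 2 these last 3 counts were 3, 4 and 5.

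Among the lysyl oxidases, which cross-link elastin and collagen, the interaction was called for Lox and Loxl3, in opposite directions. Between the Sox2-Negative groups it was instead Loxl1 (log2 1.24, SE 0.23, adjusted p = 5.1e-04) and Loxl2 (0.78, SE 0.21, adjusted p = 0.014) that were called, both higher in batch B, Loxl2 no longer without the batch B libraries numbered 1 and 2 (0.48, SE 0.27). Lox ranged from 30.5 to 45.5 CPM in batch A Sox2-Negative libraries and was at 0 counts in all 6 batch A Sox2-Positive libraries. That is at least 62.4-fold lower when the mean floor of 3 counts per library is put in place of 0. In batch B the Sox2-Negative libraries were at 43.3, 73.4, 52.3 and 83.7 CPM and the Sox2-Positive libraries ranged from 14.2 to 26.2 CPM with a median of 16.8, a log2 fold change of −1.72 (SE 0.22, adjusted p = 8.4e-06). Every batch B Sox2-Positive library therefore held Lox and no batch A one did, at least a 30.8-fold difference, and the interaction was called (adjusted p = 4.8e-09), in the opposite direction to that of Fbln5. Loxl3 went the other way: it was at 10.96 ± 4.66 and 12.7 ± 6.12 CPM in the Sox2-Negative and Sox2-Positive libraries of batch A, and at 24.0 ± 7.46 and 2.55 ± 1.81 CPM in those of batch B (interaction −3.41, SE 0.67, adjusted p = 1.7e-03). Loxl2 fell in Sox2-Positive libraries of both batches, with log2 fold changes of −2.31 (SE 0.23, adjusted p = 6.7e-07) and −2.92 (SE 0.19, adjusted p = 2.2e-09). Loxl1, the oxidase that binds fibulin-5, was higher in batch A Sox2-Positive libraries (99.9 ± 26.2 against 62.6 ± 20.4 CPM, log2 0.67, SE 0.23, adjusted p = 0.028), a call lost in 5 of 12 fits that left out 1 library (log2 0.55 to 0.65).

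**Figure D5:**
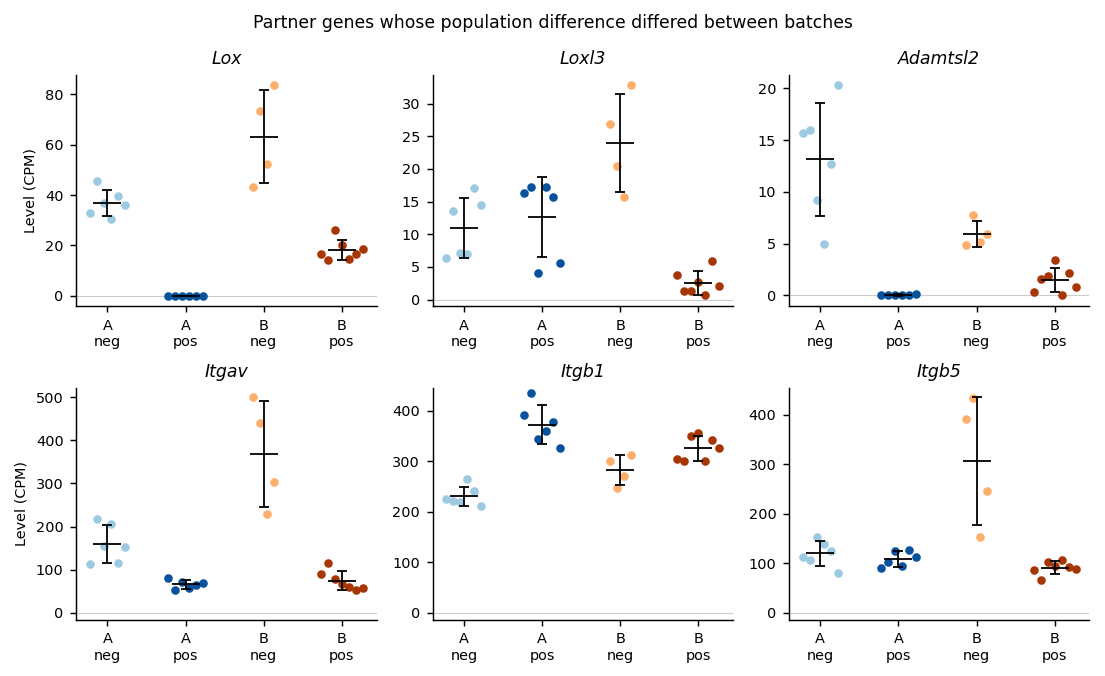
Level in CPM (vertical, linear axes) of the 6 partner genes with a called interaction, by batch and population; points are libraries and bars the mean ± SD (n = 6, 6, 4 and 7). Lox is at 0 in all 6 batch A Sox2-positive libraries and at 14.2 to 26.2 CPM in the 7 of batch B; Itgav and Itgb5 are highest in batch B Sox2-negative libraries, in particular those numbered 1 and 2.

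Latent TGF-beta binding proteins include some that hold the growth factor in microfibrils. Of the 4 listed, 1 was called in batch A and 3 in batch B, where 43.4% and 54.7% of all genes were called. Ltbp1 fell in Sox2-Positive libraries with log2 fold changes of −1.87 (SE 0.28, adjusted p = 6.4e-05) and −1.19 (SE 0.31, adjusted p = 3.7e-03). Ltbp2 was called lower in batch B (2.59 ± 1.54 against 16.2 ± 6.79 CPM, adjusted p = 2.5e-04) and not in batch A, and its interaction was not called (−1.62, SE 1.23, adjusted p = 0.52). Ltbp3 was 0.36 higher (SE 0.12, adjusted p = 0.014) in batch B Sox2-Positive libraries, a call lost without the libraries numbered 1 and 2 (0.30, SE 0.14). Of the microfibril-associated and other fibulin-family genes, Mfap2, the fibrillin-binding MAGP1, rose in Sox2-Positive libraries of both batches, by 0.97 (SE 0.12, adjusted p = 1.1e-05) and 0.61 (SE 0.09, adjusted p = 5.1e-05). Its Sox2-Positive levels were 592 ± 51.4 CPM in batch A and 664 ± 52.5 in batch B, beside Sox2-Negative levels of 303 ± 58.8 and 458 ± 34.5 CPM. Hmcn1, the giant fibulin-like hemicentin, fell, with log2 fold changes of −3.55 (SE 0.55, adjusted p = 8.2e-05) and −3.48 (SE 0.32, adjusted p = 1.7e-07), the former −4.17 without batch A Sox2-Positive library 3.

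Of the 4 listed genes of the EMILIN and multimerin family, 2 were tested in batch A and 3 in batch B. All of those tested were called lower in Sox2-Positive libraries, where 24.2% and 27.6% of all genes were. The others did not pass the filter on low counts. Emilin2 was at 59.5 ± 25.1 and 85.3 ± 2.26 CPM in Sox2-Negative libraries, had 1 count in 1 of 6 batch A Sox2-Positive libraries (adjusted p = 3.3e-09) and reached at most 0.918 CPM in batch B Sox2-Positive libraries (adjusted p = 7.3e-10). Mmrn2, an endothelial multimerin, was at 62.1 ± 22.2 and 17.3 ± 11.4 CPM in the Sox2-Negative libraries of batches A and B and at 0.435 ± 0.594 and 0.0751 ± 0.140 CPM in the Sox2-Positive ones. Among 8 microfibril-linked ADAMTS genes 3 of 5 tested fell in batch A and 4 of 7 in batch B, where 24.2% and 27.6% of all genes fell. Thsd4, which promotes fibrillin assembly, fell, with log2 fold changes of −2.97 (SE 0.83, adjusted p = 8.7e-03) and −4.02 (SE 0.33, adjusted p = 5.8e-08). Adamtsl2 was at 13.1 ± 5.46 CPM in batch A Sox2-Negative libraries with 1 count in 1 of 6 Sox2-Positive libraries, and at 5.94 ± 1.30 against 1.45 ± 1.16 CPM in batch B (adjusted p = 0.019), a call lost without batch B Sox2-Negative library 2 (adjusted p = 0.053) and without the batch B libraries numbered 1 and 2 (adjusted p = 0.16). Its interaction was called (adjusted p = 1.1e-03), with the difference larger in batch A, as for Lox.

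Integrin chains, through which cells bind fibulin-5, fibronectin and fibrillin, had 3 of 5 called in each batch, close to the 43.4% and 54.7% of all genes called. Itga5, at −0.86 (SE 0.31, adjusted p = 0.035) in batch A, was no longer called in 6 of 12 fits that left out 1 library (−0.87 to −0.66). Itgav, the alpha-v chain, fell in Sox2-Positive libraries with log2 fold changes of −1.27 (SE 0.18, adjusted p = 4.0e-05) in batch A and −2.22 (SE 0.22, adjusted p = 3.6e-07) in batch B. Itgb5, which pairs with it, was at 120.0 ± 25.2 and 109 ± 15.5 CPM in batch A and at 306 ± 130 and 91.7 ± 13.6 CPM in batch B, where its log2 fold change was −1.67 (SE 0.21, adjusted p = 6.3e-06). Itgb1 rose by 0.70 (SE 0.10, adjusted p = 2.8e-05) in batch A and by 0.27 (SE 0.11, adjusted p = 0.037) in batch B. The second call was lost in 6 of 11 fits that left out 1 library (0.21 to 0.27). It was also lost without the batch B libraries numbered 1 and 2 (0.23, SE 0.10, adjusted p = 0.0845). The interactions were −1.02 (SE 0.30, adjusted p = 0.038) for Itgav, −1.60 (SE 0.28, adjusted p = 4.8e-04) for Itgb5 and −0.49 (SE 0.14, adjusted p = 0.027) for Itgb1. Without the batch B libraries numbered 1 and 2 none of these 3 was called, at −0.81, −0.89 and −0.50, with adjusted p of 0.17, 0.075 and 0.097. The Sox2-Negative libraries with those numbers held 499 and 441 CPM of Itgav and 391 and 435 CPM of Itgb5, against 229.8 and 303 and 154 and 246 CPM in the other 2. Fn1, the fibronectin on which fibrillin assembles, fell, with log2 fold changes of −4.72 (SE 0.22, adjusted p = 9.1e-11) in batch A and −5.10 (SE 0.17, adjusted p = 6.2e-13) in batch B.

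The other members' nearest genes by the same measure of likeness were Tbc1d7 for Fbln1 (0.0283), Prmt2 for Fbln2 (0.0317), Vkorc1l1 for Efemp2 (0.0252), Fbxo33 for Eln (0.0647), Pbx2 for Fbn1 (0.023), Pax9 for Fbn2 (0.206) and Slit3 for Emilin1 (0.0629). Among the members themselves the closest pairs were Fbln1 with Fbln2 (0.396) and Eln with Fbn1 (0.428).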

How the data were processed

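RNA was measured in 23 libraries. As deposited, the values for 54347 genes are expected counts, that is estimated counts, and were not scaled to a common depth. The submitters' processing notes name FastQC, Trimmomatic, Salmon and the mm10 build, without versions or roles, and no annotation release or strand setting is given in the sources used here. Of the nonzero values, 0.000436% were whole (within 1e-06), although library totals were at most 0.111 from whole, which means that values had been adjusted per gene before deposit; how is not given, and levels per kilobase rest on it.

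Estimated counts were rounded to whole numbers. Identifiers were matched without version to GENCODE M21 (GRCm38): 54094 (99.5%) matched, 53307 with version. Positions and lengths come from it, upstream sequences from RefSeq. Unused columns of sample values numbered 0. edgeR 4.0.16 in R 4.3.3 was run with TMM scaling, filterByExpr (minimum count 10), quasi-likelihood F tests, two-sided, and Benjamini-Hochberg adjustment over all genes tested. Populations were fitted within each batch; the interaction and batch differences came from a model of the 4 group means. The SE of a log2 fold change is its size over the square root of F. Libraries of a group all differed by more than sampling noise (smallest chi-square over its degrees of freedom 5.46).

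The members, the list of 33 partner genes, the 9 marker lists and the tests were chosen with earlier results of these data known, so no result is independent of them. All members are named; of a partner role group, at most the 4 called genes with the largest change in a comparison. In simulated data, 37% of genes changed by 1 on the log2 scale and 75% of those changed by 2 were recovered for batch A among 14447 genes, 29% and 70% for batch B among 15859, and 16% and 52% for the interaction among 16677. Alternatives were DESeq2 1.42.0, RLE and total-count scaling, 2 other filters, a replicate block, omission of batch B libraries 1 and 2, and omission of each library. ATAC-seq libraries were not analysed here. Part of the glial marker list is not reported here, and its sums were taken over the other 5 genes after the data were seen.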

Additional observations from a re-analysis of the deposited data

Results flagged for a closer look

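The interaction term of edgeR over all 23 libraries was called for 10 of the genes described, where 7.04% of all genes were called. The members among them were chosen with this contrast known, so their calls are no test. Eln, Itgav, Itgb1 and Itgb5 were no longer called without the batch B libraries numbered 1 and 2. On the log2 scale, the interaction is the population difference in batch B minus that in batch A. Among the members it was −1.5 for Fbln1, −0.91 for Fbln2, −3.74 for Fbln5 and −0.88 for Eln. Among the partner genes it was −3.41 for Loxl3, −1.02 for Itgav, −0.49 for Itgb1 and −1.60 for Itgb5, and it had the opposite sign for Lox and Adamtsl2. For those latter genes the fitted values, 8.77 and 5.90, depend on the prior count, since batch A Sox2-Positive libraries held 0 or 1 count in all.

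Single libraries lay far from the others of their group in 11 of 130 groups of 4 to 7 libraries checked, where chance gives about 1 in 20. Among the members these were Fbln2 in batch A Sox2-Negative library 2 (175 CPM, the next at 122), Fbln5 in batch A Sox2-Negative library 3 (76.1 CPM, the next at 56.2), Fbn2 in batch B Sox2-Negative library 1 (774 CPM, the next at 628), Fbn2 in batch B Sox2-Positive library 3 (20.7 CPM, the next at 8.62) and Mfap5 in batch B Sox2-Positive library 1 (0.168 CPM, a single count, the others at 0). Among the partner genes they were Ltbp2 (17.0 CPM), Emilin2 (0.159 CPM, a single count) and Adamtsl2 (0.159 CPM, a single count) in batch A Sox2-Positive library 6, Emilin3 (2.21 CPM) in batch A Sox2-Positive library 1, Adamts6 (3.86 CPM) in batch B Sox2-Positive library 1, and Adamts10 (47.4 CPM, below the next at 60.8) in batch B Sox2-Positive library 2.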

How the results depend on the processing

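Counts of members called stayed within 1.5 times the reported count under the alternatives except as follows. Without the batch B libraries numbered 1 and 2, members called fell from 5 to 3 between the Sox2-Negative groups and from 4 to 2 between the Sox2-Positive groups, and partner genes called fell from 8 to 4 between the Sox2-Negative groups and from 6 to 3 for the interaction. Over all genes the same omission took the interaction from 1210 to 481 calls and the batch differences from 1924 to 754 and from 1785 to 1159. Leaving out 1 library at a time gave 7 members in batch A and 8 in batch B in every fit, 4 to 6 and 3 to 5 between batches in Sox2-Negative and Sox2-Positive libraries, and 3 to 5 for the interaction; partner genes called were 15 to 18, 19 to 21, 7 to 8, 4 to 6 and 4 to 7 in the same order.

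Deviations of same-numbered libraries of the populations had correlations of −0.0212 to 0.0444. The best partner of any number reached at most 0.0602, so these values are too near 0 to show whether the numbers pair the libraries. With the replicate number as a block, members called for the interaction went from 4 to 2 (Fbln2 at −0.80 and Eln at −0.94 not called) and interaction calls over all genes from 1210 to 557.

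Of the folds of single genes under all alternatives, 2231 kept direction and side of the threshold, 117 lost and 10 gained the call, and 17 turned sign, none of them called. Fbln1 in batch B was 0.0585 with total-count scaling, 0.0176 with no filter, 0.17 without the batch B libraries numbered 1 and 2, and −0.0896 to 0.0291 with 1 library left out. The Fbn1 interaction was −0.13 without those libraries, and −0.0401 to 0.279 with 1 left out. With 1 library left out, Efemp2 in batch A ran from −0.0251 to 0.191, and between batches Efemp1 in Sox2-Negative libraries ran from −0.921 to 0.331, Efemp2 in Sox2-Positive libraries from −0.093 to 0.0456 and Fbn2 in Sox2-Positive libraries from −1.27 to 0.203. The cause was not tested. Efemp1, Fbn2, Emilin1 and Mfap5 are limited by depth in Sox2-Positive libraries, some of which held 3 counts or fewer.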
